A study of Mus musculus with 6 samples.

Results

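The basic helix-loop-helix (bHLH) transcription factors other than the ID proteins and E proteins were examined after Id4 knockdown in Comma-Dβ, a mouse cell line of mammary epithelium. The set was given as 46 gene symbols spanning plain bHLH, bHLH-zipper and bHLH-PAS factors, and rows of the deposited count table were taken by symbol. Of the 46, 43 had a row among the 25655 genes of the table, and Hand2, Tcf21 and Tcf15 were not analysed here. A filter on low counts was passed by 32 members, as by 13941 genes in all, and the other 11 members were below it. In the siID4 arm, 3 biological replicates were transfected with siGENOME siRNAs to Id4, and in the NT arm 3 were given ON-TARGETplus siRNAs that target no gene. Both arms were at passage 29, grown in medium with serum, insulin and EGF, given siRNA at 20 nM and harvested after 48 hr. The arms differed in siRNA product line as well as in target, and this difference and that of the target cannot be told apart. All cells were of 1 line, and the labels do not say how the replicates were separated.

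bHLH factors bind DNA as dimers, mostly at short palindromes called E-boxes with the letters CANNTG, where N is any base. The helix-loop-helix joins the dimer and the basic stretch before it contacts DNA. ID proteins lack that basic stretch and hold their partners off DNA, chiefly the E proteins. Many of the factors described here use other partners: MAX for the MYC network, ARNT or BMAL1 for PAS factors, and family members for HES, HEY and BHLHE repressors. In the mammary gland members of these families are known for roles in growth (MYC), in Notch output (HES and HEY) and in circadian timing (CLOCK and BMAL1).

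Library totals, in units of 1000000 counts, ran from 21.7 to 23.1 in siID4 and from 19.2 to 23.1 in NT. Id4 itself had 59.4, 62.2 and 48.2 CPM (counts scaled to 1000000 per library, with TMM factors) in the siID4 libraries, against 135, 114 and 118 CPM in the NT libraries, so every siID4 library was under every NT library. All 8 epithelial markers passed the filter, and their summed level was 2319 to 2696 TPM (transcript units scaled to 1000000 per library) in siID4 and 2489 to 2954 TPM in NT. Of these markers Cdh1 rose and Epcam fell, and with the replicate number as a block in the fit 1 was called upward and 5 downward. Markers of endothelial cells, leukocytes and adipocytes were near 0, at a sum of at most 1.63, 4.04 and 0.788 TPM in any library, with Plin1 at 0 in all 6. Markers of fibroblasts were present and differed between the arms in both directions. Their sum was 1264 to 1346 TPM in siID4 and 897 to 983 TPM in NT, and of 7 tested 3 rose and 1 fell, or 5 up and 2 down with the block. Most of the sum was Col1a1, at 596 TPM in siID4 and 371 TPM in NT, and Col1a2, at 538 and 393 TPM. Pdgfra (10.7 TPM in siID4, 15.9 TPM in NT) and Dcn (50.5 and 62.1 TPM) were lower in siID4. Over all genes tested, 9.55% were called without the block and 36.1% with it.

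Of the 32 bHLH factors tested, Atoh8, Mxd4 and Myc rose in siID4 cells and Clock, Bhlhe41 and Mlxip fell, at a Benjamini-Hochberg adjusted p under 0.05 in edgeR's quasi-likelihood test over all genes. The other 26 did not pass. Calls were made for 9.55% of all genes tested, 4.62% upward and 4.93% downward. The increases were 2.32-fold for Atoh8 and 1.74-fold for Mxd4, with a smaller one of 0.26 on the log2 scale for Myc, and the decreases left Clock at 0.756, Bhlhe41 at 0.804 and Mlxip at 0.825 of the NT level. The median log2 fold change was 0.08 over the members and 0.00 over all genes tested. In bulk RNA, fewer cells that express a gene and less of its RNA per cell cannot be told apart. In a further fit, libraries of the same replicate number were taken as pairs. With the number as a block 18 members were called, 13 upward and 5 downward, against 36.1% of all genes (17.9% upward and 18.3% downward). The call count also rested on single libraries: 2 members passed without siID4 replicate 2 and 1, Clock, without NT replicate 2. Calls over all genes fell in the same fits, from 1331 to 445 without siID4 replicate 2 and to 631 without NT replicate 2.

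**Figure D1:**
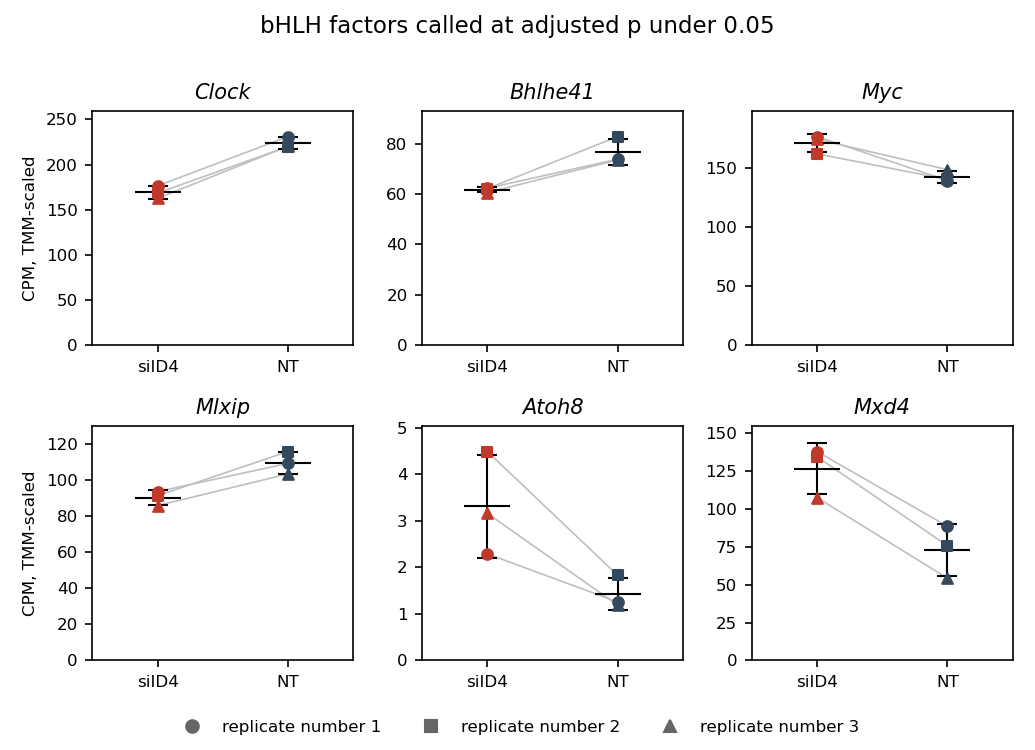
CPM (TMM-scaled, axis from 0) of the 6 bHLH factors called, with siID4 libraries in red and NT libraries in dark blue, lines joining libraries of the same replicate number, and black bars for mean and SD (n = 3 per arm). In all 6 panels the arms do not overlap, and the Myc arms come close, at 162 to 176 CPM in siID4 and 139 to 148 CPM in NT.

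**Figure D2:**
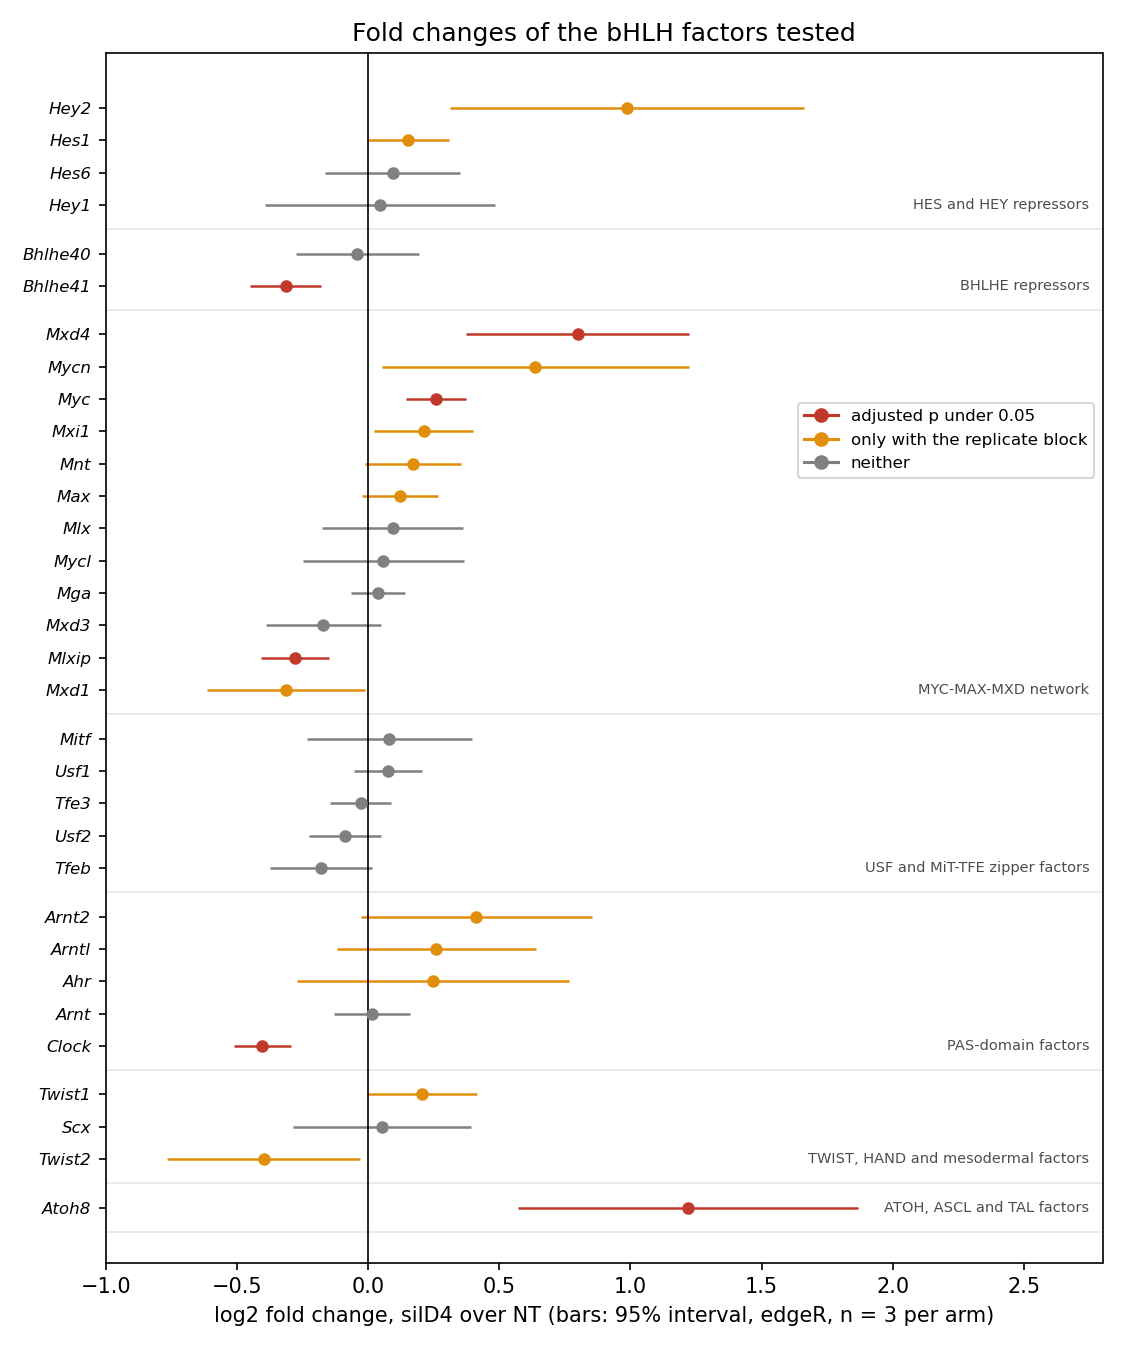
Log2 fold change, siID4 over NT, with its 95% interval for the 32 bHLH factors tested, grouped by subfamily. Red marks the 6 called without a block, orange the 12 called only with the replicate number as a block and grey the 14 called by neither fit.

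Across the family, expression spanned a wide range of TPM, which corrects for gene length and so allows genes to be set side by side. These TPM carry no TMM factor, and a small difference between arms can change sign from CPM to TPM. Tfe3 had 59.8 TPM in siID4 and 58.9 TPM in NT, but 86.4 and 88.1 CPM. Myc was highest, at 164 ± 6.37 TPM in siID4 and 133 ± 4.26 TPM in NT (SD, n = 3 each, as for all TPM and CPM means here). Usf2 followed at 110 ± 3.64 TPM in siID4 and 113 ± 5.07 TPM in NT, then Usf1 at 98.3 ± 2.74 TPM in siID4 and 90.2 ± 5.11 TPM in NT. Bhlhe40, Mlx, Hes1, Tfe3, Arnt and Max came next with means over the 6 libraries of 69.6 to 57.1 TPM, and differences between neighbours in this run were not tested. At the low end of the genes tested were Atoh8, Mycn and Hey2, with means over the 6 libraries of 1.93, 1.71 and 0.960 TPM. The 3 highest genes held 12.8%, 9.58% and 8.12% of the summed TPM of all members.

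**Figure D3:**
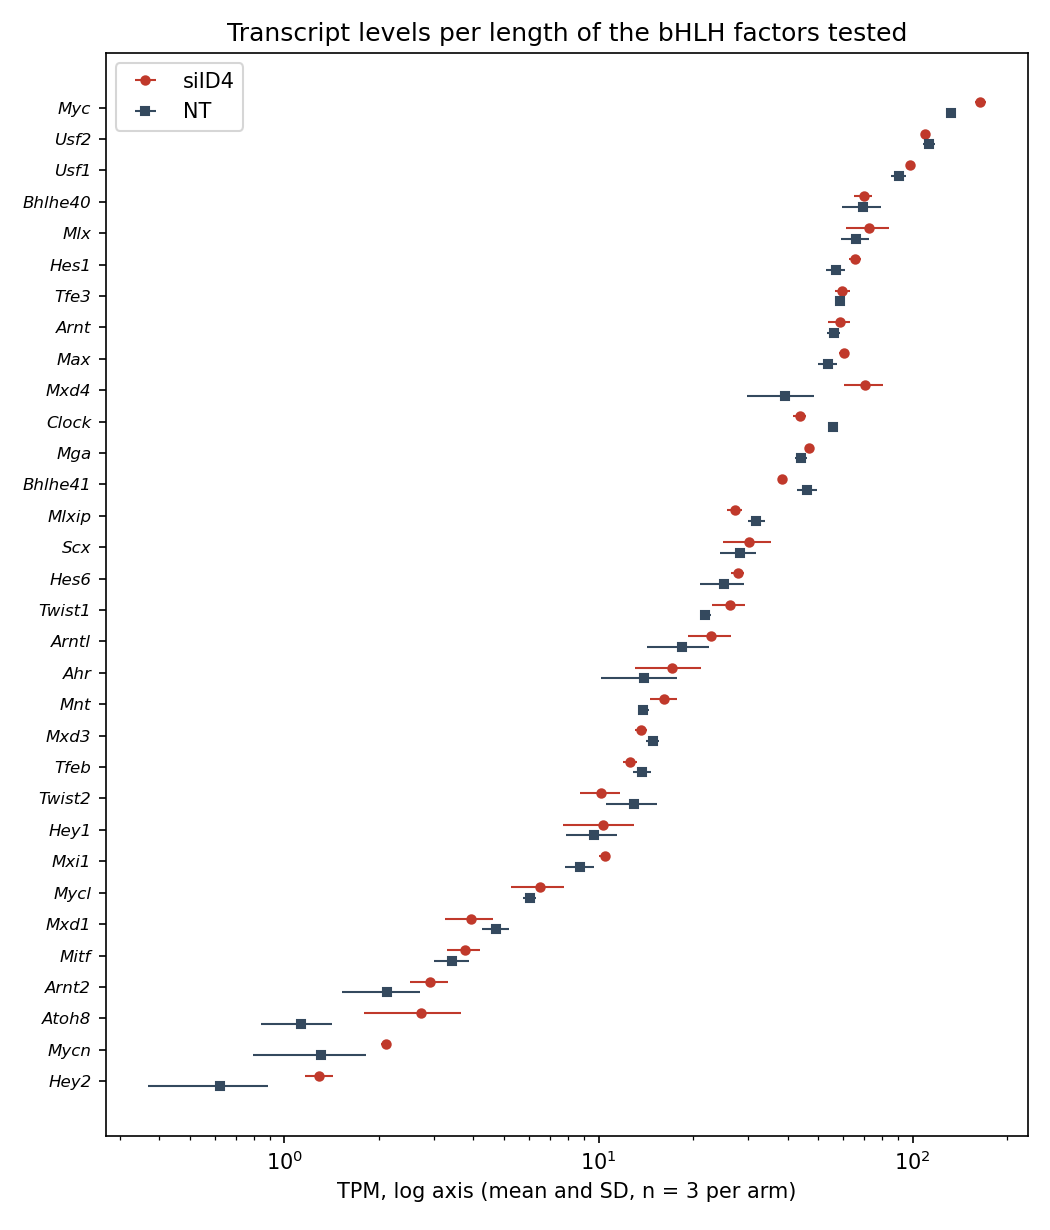
TPM on a log axis (mean and SD, n = 3 per arm) of the 32 bHLH factors tested, siID4 in red and NT in dark blue, ordered by the mean of the 6 libraries. Levels run from Myc at 164 TPM in siID4 and 133 TPM in NT down to Hey2 at 1.29 TPM in siID4 and 0.626 TPM in NT, and Mxd4, at 70.4 TPM in siID4 and 39.1 TPM in NT, stands out among its neighbours for the distance between its arms.

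The 11 members below the filter had at most 26 counts over the 6 libraries, and no fold change is given for them. Tfec, a MiT-TFE factor known from macrophages, and Hand1, a factor of heart and placenta development, had 0 counts in every library. Mesp1 of early mesoderm and Tal1 of blood development had 1 count each in all. The HES family repressor Hes7, which times the segmentation clock of the embryo, had 4 counts, Msc 5 and Heyl 4. Lyl1, a relative of Tal1, had 0, 0 and 0 counts in siID4 and 1, 3 and 1 in NT. Ascl2, a stem cell factor of the intestine, had 7 counts. Npas2, which can stand in for CLOCK, had 8, 6 and 3 counts in siID4 and 2, 1 and 4 in NT, and Mlxipl, the glucose-responsive factor ChREBP, had 6, 5 and 6 in siID4 and 7, 2 and 0 in NT.

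In the MYC network, MYC pairs with MAX to activate genes, while MXD proteins, MXI1 and MNT pair with MAX and repress, and MLX forms a parallel branch with MLXIP and MLXIPL. Both an activator and a repressor of the network rose, and the MLX partner Mlxip fell. Of 12 members tested 2 rose, 1 fell and 9 did not pass, or 6 up and 2 down with the replicate block. The shares over all genes were 9.55% without the block and 36.1% with it. The median log2 fold change of these 12 was 0.11. The summed level of the network's 13 genes was 485 to 504 TPM in siID4 and 406 to 430 TPM in NT. Myc (164 TPM in siID4, 133 TPM in NT) and Mxd4 (70.4 and 39.1 TPM) had the largest differences in this sum. Of the 12 tested, 9 had a log2 fold change above 0 and 3 below.

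Myc (ENSMUSG00000022346, chromosome 15 from 61985391 to 61990374, plus strand, GRCm38) had 176, 162 and 174 CPM in siID4, against 139, 140 and 148 CPM in NT. Every siID4 library was above every NT library, and the log2 fold change was 0.26 (SE 0.05, adjusted p = 0.0148). Without NT replicate 2 Myc did not pass (adjusted p = 0.0740), and it passed in the other 5 fits that left out a library. Mycn, the relative known from embryonic and neural growth, had 2.24, 2.31 and 2.19 CPM in siID4 and 2.11, 1.10 and 1.14 CPM in NT. Its difference of 0.64 on the log2 scale (SE 0.26, adjusted p = 0.161) did not pass, but it did with the block (adjusted p = 0.0187) and without NT replicate 1 (adjusted p = 0.0269), which was the high library of its arm. Mycl was at 11.4 ± 2.12 CPM in siID4 and 10.9 ± 0.529 CPM in NT, with a 95% interval of the log2 fold change from −0.25 to 0.36. The shared partner Max had 61.9 ± 2.48 CPM in siID4 and 56.9 ± 3.75 CPM in NT (adjusted p = 0.278, or 0.0196 with the block).

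Mxd4 (ENSMUSG00000037235, chromosome 5 from 34173883 to 34187720, minus strand), a repressor that competes for MAX, had the largest change of any member with over 5 CPM. Its levels were 138, 134 and 107 CPM in siID4, against 88.5, 75.7 and 54.2 CPM in NT, which is 0.80 on the log2 scale (SE 0.18, adjusted p = 0.0376). The arms did not overlap, and replicate number 3 was the lowest library of each. Within a number the difference was 0.64, 0.82 and 0.98 on the log2(CPM + 0.5) scale for numbers 1, 2 and 3, and the block lowered the adjusted p to 1.44e-04. The call was lost when all genes with a count were kept (adjusted p = 0.166) and without siID4 replicate 1 (0.134), siID4 replicate 2 (0.114) or NT replicate 2 (0.0817).

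None of the other MAX-binding repressors passed without the block, and their fold changes lay on both sides of 0. Mxi1 was at 27.5 ± 0.925 CPM in siID4 and 23.7 ± 2.33 CPM in NT, with arms that did not overlap (log2 fold change 0.21, adjusted p = 0.152, or 0.00426 with the block). Mnt was at 38.4 ± 3.56 CPM in siID4 and 34.1 ± 1.52 CPM in NT (0.17, adjusted p = 0.226, or 0.0178 with the block). Mxd1, a repressor known from differentiating cells, was at 9.47 ± 1.54 CPM in siID4 and 11.8 ± 1.17 CPM in NT (−0.31, adjusted p = 0.180, or 0.0148 with the block), and in replicate number 2 alone it was not lower in siID4. Mxd3 had 9.80, 8.92 and 9.78 CPM in siID4 and 11.3, 10.3 and 10.5 CPM in NT, with arms that did not overlap (−0.17, adjusted p = 0.311). Mga, a large factor that pairs with MAX in a repressive complex, was at 147 ± 2.06 CPM in siID4 and 143 ± 5.53 CPM in NT, with an interval from −0.07 to 0.14.

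Mlxip (ENSMUSG00000038342, chromosome 5 from 123394798 to 123457932, plus strand) encodes MondoA, a sensor of glucose phosphates that pairs with MLX. It had 93.5, 91.2 and 85.7 CPM in siID4, against 109, 116 and 103 CPM in NT. All siID4 libraries were lower, and the log2 fold change was −0.28 (SE 0.06, adjusted p = 0.0183). It passed in 3 of the 6 fits without a library and failed without siID4 replicate 2 (adjusted p = 0.0818), NT replicate 2 (0.0811) or siID4 replicate 3 (0.0557). Its partner Mlx had 41.4 ± 6.30 CPM in siID4 and 38.8 ± 3.79 CPM in NT (adjusted p = 0.678).

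Genes known as targets of these factors were looked at beside them. Of 16 target genes of MYC, most of them in ribosome and nucleotide synthesis, 0 were called by edgeR's quasi-likelihood test, DESeq2 or limma-voom, 2 had an unadjusted p under 0.05, and 13 of the 16 had a log2 fold change below 0, with a median of −0.08. With the block 1 was called upward, the kinase gene Cdk4 (0.07, adjusted p = 0.0325), and 8 downward, where 36.1% of all genes were called with the block and 9.55% without it. Among these 8, the nucleolar gene Ncl had 1445 ± 77.0 CPM in siID4 and 1612 ± 65.5 CPM in NT (−0.16, adjusted p = 0.0969, or 1.58e-05 with the block). Odc1, which encodes a polyamine synthesis enzyme, had 154, 153 and 171 CPM in siID4 and 165, 180 and 201 CPM in NT (−0.19, adjusted p = 0.149, or 1.00e-05 with the block). For the MLX branch, 0 of 3 tested targets were called by edgeR, DESeq2 or limma-voom, and 1 had an unadjusted p under 0.05. Its usual reporters Txnip and Arrdc4 had log2 fold changes of −0.03 (SE 0.17) and 0.05 (SE 0.14), and the block called Khk alone (0.60, adjusted p = 0.00334).

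PAS-domain factors are the part of the family that senses time, oxygen and xenobiotics. CLOCK and BMAL1 (gene Arntl) form the activator of the circadian clock, which drives the genes of its own repressors PER, CRY and REV-ERBα (gene Nr1d1). BHLHE40 and BHLHE41, also called DEC1 and DEC2, compete with it at E-boxes. In siID4 cells Clock fell, as did Bhlhe41, and so did Per2 and Nr1d1, while Arntl was higher within every replicate number and passed only with the block. The other PER and CRY genes did not pass without the block and lay on both sides of 0. Their log2 fold changes were 0.10 for Per1, 0.17 for Per3, 0.23 for Cry2 and −0.23 for Cry1.

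Clock (ENSMUSG00000029238, chromosome 5 from 76209868 to 76304792, minus strand) had 176, 169 and 163 CPM in siID4, against 231, 220 and 220 CPM in NT. The arms were separated by more than the range of either, and the log2 fold change was −0.40 (SE 0.05, adjusted p = 0.00188). Clock passed in every alternative run, including all 6 fits without a library, with adjusted p up to 0.0192. Within replicate numbers 1, 2 and 3 the log2 differences were −0.39, −0.38 and −0.44.

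Arntl had 40.2, 31.8 and 30.5 CPM in siID4 and 35.9, 25.7 and 24.1 CPM in NT. The arms overlapped, and replicate number 1 was the highest library of each, above the others by more than the difference between the arm means. The log2 fold change of 0.26 (SE 0.17, adjusted p = 0.376) did not pass, and with the block it was 0.27 (SE 0.06, adjusted p = 3.56e-04). Its relative Arntl2, which is not a member, had 13.0 ± 0.947 CPM in siID4 and 16.5 ± 0.992 CPM in NT (−0.34, adjusted p = 0.0514, or 7.13e-04 with the block).

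Bhlhe41 (ENSMUSG00000030256, chromosome 6 from 145858243 to 145865558, minus strand) had 62.3, 62.1 and 60.6 CPM in siID4, against 73.8, 82.8 and 73.5 CPM in NT. The siID4 libraries were tightly grouped and all lower, at −0.31 on the log2 scale (SE 0.06, adjusted p = 0.0128). Without siID4 replicate 2 (adjusted p = 0.0672) and without NT replicate 2 (0.0513) it did not pass. Bhlhe40, its close relative, was at 97.8, 110 and 110 CPM in siID4 and 90.8, 116 and 120 CPM in NT. These arms overlapped, and the 95% interval of its log2 fold change ran from −0.27 to 0.19.

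Of 16 genes of the clock's repressors, outputs and regulators, 2 fell and 14 did not pass, with a median log2 fold change of 0.04. Per2 had 32.0, 40.4 and 35.8 CPM in siID4, against 48.1, 56.6 and 49.7 CPM in NT (log2 fold change −0.51, SE 0.10, adjusted p = 0.0121, or 0.0564 without NT replicate 2). Nr1d1 had 20.9, 25.8 and 25.9 CPM in siID4, against 31.1, 31.0 and 33.0 CPM in NT (−0.39, SE 0.09, adjusted p = 0.0306), and it passed in 2 of the 6 fits without a library. Both genes had arms that did not overlap. With the block 4 of the 16 were called upward and 3 downward. Of all genes 36.1% were called with the block and 9.55% without it. Upward were Rora, Per3, Cry2 and Nfil3, and Cry1 joined Per2 and Nr1d1 downward (−0.23, adjusted p = 0.00272 with the block). Per1 and the clock output gene Dbp were called by neither fit. All libraries were harvested at 48 hr, and a shift in the phase of the clock and a change in level cannot be told apart at 1 time.

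**Figure D4:**
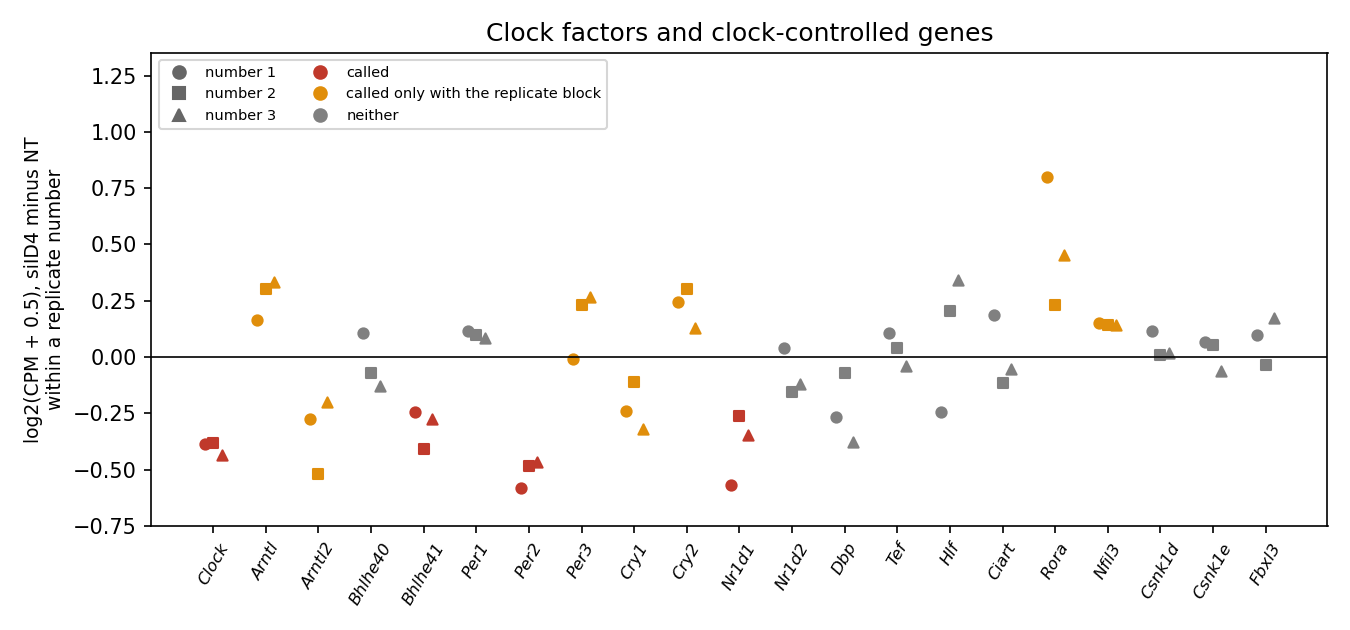
Difference in log2(CPM + 0.5), siID4 minus NT, within replicate numbers 1 (circles), 2 (squares) and 3 (triangles) for clock bHLH factors and for the 16 genes of clock repressors, outputs and regulators, with Arntl2 added. Clock, Bhlhe41, Per2 and Nr1d1, in red, lie below 0 in all 3 numbers, and Arntl, in orange, lies above 0 in all 3.

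Ahr encodes the receptor for dioxins and tryptophan metabolites, which pairs with ARNT. Its levels were 52.4, 37.5 and 33.8 CPM in siID4 and 45.5, 31.4 and 27.6 CPM in NT, so that replicate number 1 stood highest in each arm. The log2 fold change was 0.25 (SE 0.22, adjusted p = 0.545), and with the block 0.25 (SE 0.05, adjusted p = 4.26e-04). Arnt was at 99.7 ± 7.48 CPM in siID4 and 98.7 ± 4.67 CPM in NT, with an interval from −0.13 to 0.16. Arnt2, the relative known from neurons, had 10.1, 7.61 and 9.34 CPM in siID4 and 8.98, 5.43 and 5.94 CPM in NT (0.41, adjusted p = 0.224). Arnt2 passed with the block (adjusted p = 0.00213) and without NT replicate 1 (0.0311).

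Among 5 tested genes known as targets or regulators of AHR, 1 rose, 2 fell and 2 did not pass. Over all genes tested 9.55% were called without the block and 36.1% with it. Of the 2 that did not pass, Tiparp was called downward with the block (−0.19, adjusted p = 0.00541). Cyp1b1, a cytochrome P450 gene, had 188, 163 and 168 CPM in siID4, against 132, 99.4 and 106 CPM in NT (log2 fold change 0.62, SE 0.10, adjusted p = 0.00921). Aldh3a1, an aldehyde dehydrogenase gene, had 54.6, 60.9 and 62.7 CPM in siID4, against 85.3, 110 and 120 CPM in NT (−0.82, SE 0.12, adjusted p = 0.00593). Nqo1, a quinone reductase gene also driven by NRF2, averaged 18.4 CPM in siID4 and 28.4 CPM in NT (−0.62 on the log2 scale, SE 0.11, adjusted p = 0.00920, or 0.0569 without siID4 replicate 2). Cyp1a1, the usual reporter of AHR activity, had at most 0.0880 CPM in any library and was not tested.

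HES and HEY proteins are repressors that Notch signals induce, and BMP signals induce some of them too. Of the 4 members tested, 0 were called by edgeR without a block, by DESeq2 or by limma-voom, 1 had an unadjusted p under 0.05, and all 4 had a log2 fold change above 0. In edgeR 9.55% of all genes were called without the block and 36.1% with it. Hes1, the best known Notch target, had 47.1, 50.9 and 48.8 CPM in siID4 and 40.4, 45.6 and 45.9 CPM in NT. Its arms did not overlap, with a gap smaller than the range of either arm (log2 fold change 0.15, SE 0.07, adjusted p = 0.204, or 0.0123 with the block). Hey2 was low, at 1.86, 1.72 and 1.53 CPM in siID4 and 0.452, 1.10 and 1.01 CPM in NT, or 43, 38 and 35 counts against 9, 21 and 23. Its log2 fold change was 0.99 (SE 0.30, adjusted p = 0.0707), and it passed with the block (0.00365) and with no filter on low counts (0.0424). Hes6, which opposes HES1 in neural cells, was at 20.1 ± 1.00 CPM in siID4 and 18.8 ± 3.08 CPM in NT, and Hey1 at 11.9 ± 2.92 CPM in siID4 and 11.5 ± 2.12 CPM in NT. For Hey1 the 95% interval of the log2 fold change ran from −0.39 to 0.48.

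Of 13 tested genes of the Notch pathway, 2 rose and 11 did not pass, with a median log2 fold change of 0.09. The ligand gene Dll1 had 30.0, 35.2 and 31.3 CPM in siID4, against 20.4, 23.9 and 20.9 CPM in NT (log2 fold change 0.57, SE 0.09, adjusted p = 0.00602). The receptor gene Notch3 had 24.7, 18.8 and 17.3 CPM in siID4, against 14.8, 12.7 and 13.1 CPM in NT (0.58, SE 0.14, adjusted p = 0.0303), and it passed in 3 of the 6 fits without a library. With the block 5 were called upward, among them the ligand gene Jag1 (0.47, adjusted p = 2.87e-10), and 2 downward, Rbpj and Maml3. The share of all genes called was 36.1% with the block and 9.55% without it. Nrarp, a feedback target of Notch, was called by neither fit (−0.18, adjusted p = 0.597).

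Atoh8 (ENSMUSG00000037621, chromosome 6 from 72206177 to 72235577, minus strand) is a distant relative of the atonal factors and a known target of BMP signals in liver and endothelium. It had the largest increase of any member, from a low level. It stood at 2.29, 4.48 and 3.16 CPM in siID4, against 1.25, 1.83 and 1.19 CPM in NT, or 53, 99 and 72 counts against 25, 35 and 27. The arms did not overlap, and the siID4 libraries were more widely spread than the NT libraries, with siID4 replicate 2 the highest. The log2 fold change was 1.22 (SE 0.29, adjusted p = 0.0304). It passed in 1 of the 6 fits without a library, and without siID4 replicate 2 it was 0.94 (adjusted p = 0.121).

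Of 12 tested genes of BMP signalling, 3 rose and 9 did not pass, with a median log2 fold change of 0.25. They were Id3, which had 131 ± 10.3 CPM in siID4 and 43.8 ± 4.48 CPM in NT (1.58, SE 0.08, adjusted p = 6.07e-05), the ligand gene Bmp4 (1.07, adjusted p = 0.0111) and the inhibitory SMAD gene Smad6 (0.70, adjusted p = 0.0370). Smad6 passed in 1 of the 6 fits without a library and not with DESeq2, which called 2 genes of the list, and Bmp4 passed in 5. With the block 5 were called upward and 1 downward, where 17.9% of all genes were called upward and 18.3% downward. Without the block 4.62% of all genes were called upward and 4.93% downward.

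The deposited table gives no sequence, and the promoters of 3 of the 6 called members are shown because each holds the palindrome CACGTG, the E-box bound by MYC-MAX, CLOCK-BMAL1 and BHLHE dimers. Each is the RefSeq window on GRCm38.p6 from 250 bases before to 50 after the gene's start, written 5′ to 3′ on the gene's strand, with CACGTG in capitals. The windows are chr5:34187661-34187960 for Mxd4, chr6:72235528-72235827 for Atoh8 and chr6:145865371-145865670 for Bhlhe41, all on the minus strand.
Mxd4: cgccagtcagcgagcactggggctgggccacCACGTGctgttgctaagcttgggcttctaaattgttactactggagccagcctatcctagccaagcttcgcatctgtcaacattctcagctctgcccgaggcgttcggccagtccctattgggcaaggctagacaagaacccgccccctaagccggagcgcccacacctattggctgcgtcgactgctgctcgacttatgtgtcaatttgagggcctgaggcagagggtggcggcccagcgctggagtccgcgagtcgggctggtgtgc
Atoh8: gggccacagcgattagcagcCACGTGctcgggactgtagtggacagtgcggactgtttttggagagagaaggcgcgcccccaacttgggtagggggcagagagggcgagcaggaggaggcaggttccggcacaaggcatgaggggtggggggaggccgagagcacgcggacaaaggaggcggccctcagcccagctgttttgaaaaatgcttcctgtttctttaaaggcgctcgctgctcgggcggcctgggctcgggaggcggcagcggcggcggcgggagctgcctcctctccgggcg
Bhlhe41: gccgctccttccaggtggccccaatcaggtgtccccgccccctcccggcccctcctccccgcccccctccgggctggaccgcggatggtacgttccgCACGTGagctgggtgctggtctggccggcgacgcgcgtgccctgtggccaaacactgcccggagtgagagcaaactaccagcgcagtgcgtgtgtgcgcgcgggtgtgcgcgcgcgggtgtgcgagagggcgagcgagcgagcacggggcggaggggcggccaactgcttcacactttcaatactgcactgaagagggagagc

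The palindrome begins 219 bases before the RefSeq start of Mxd4, 230 before that of Atoh8 and 153 before that of Bhlhe41. For Bhlhe41 the RefSeq start, at 145865420, lies inside the gene as placed by GENCODE, which begins at 145865558 on the minus strand. Its distance from the GENCODE start is therefore smaller. The letters were searched for CACGTG, which reads the same on both strands, and for the wider CANNTG, which includes it. Of the 35 members found in the RefSeq promoter table, 7 had CACGTG in at least 1 window, namely Atoh8, Bhlhe41, Max, Mlx, Mlxipl, Mnt and Mxd4. That is 20.0% of these genes, against 8.09% of all genes in the table. Among genes tested it was in 6 of the 25 members found there, against 11.7% of all. CANNTG was present for 77.1% of the members, against 20265 of the 27025 genes in the table, and among genes tested for 19 of the 25 members, against 67.0% of all. The windows of Clock and Mlxip held no CACGTG. Myc is among the 11 members with no entry.

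TWIST factors drive mesenchymal programmes, and SCX marks tendon and connective tissue cells. Of the 3 tested, 0 were called by edgeR without a block, by DESeq2 or by limma-voom, and 1 had an unadjusted p under 0.05. Calls by edgeR over all genes were 9.55% without the block and 36.1% with it. Twist1 had 20.2, 24.5 and 20.7 CPM in siID4 and 19.4, 17.9 and 19.4 CPM in NT (log2 fold change 0.20, adjusted p = 0.208, or 0.0255 with the block). Twist2 had 5.91, 7.16 and 8.07 CPM in siID4 and 7.98, 8.56 and 11.2 CPM in NT (−0.40, adjusted p = 0.164, or 0.00206 with the block). The Twist2 arms overlapped by 1 library, siID4 replicate 3, and replicate number 3 was the highest in each arm. Scx was at 17.8 ± 3.27 CPM in siID4 and 17.1 ± 2.35 CPM in NT (adjusted p = 0.869).

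Of 6 factors of epithelial-mesenchymal transition outside the bHLH family, 2 rose, Snai2 (0.31, adjusted p = 0.0200) and Zeb2 (0.33, adjusted p = 0.0263), each in 2 of the 6 fits without a library. With the block 4 were called upward and 1 downward, where 17.9% of all genes were called upward and 18.3% downward. Without the block the shares of all genes were 4.62% upward and 4.93% downward. Beside these genes the 7 fibroblast markers tested had a median log2 fold change of 0.43. Col1a1, Col1a2 and Pdgfrb rose (0.63, 0.40 and 0.43) and Pdgfra fell (−0.62), and Lum was near 0. With the block Dcn joined Pdgfra downward and the other 5 tested were called upward. Their part in the values of the TWIST genes was not tested.

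The USF factors, which bind E-boxes in most cells, and the MiT-TFE factors, which drive lysosome genes, were called in no fit of all 6 libraries. Of the 5 tested, 0 were called by edgeR with or without the block, by DESeq2 or by limma-voom, and 0 had an unadjusted p under 0.05 in edgeR. Among all genes edgeR called 36.1% with the block and 9.55% without it. Usf1 was at 61.6 ± 1.70 CPM in siID4 and 58.5 ± 3.01 CPM in NT, with an interval from −0.06 to 0.21. Its counts were the only ones among the members that were not whole, so part of its reads were shared with other loci by estimate. Usf2 was at 57.3 ± 2.40 CPM in siID4 and 60.9 ± 3.07 CPM in NT, and Tfe3 at 86.4 ± 4.27 CPM in siID4 and 88.1 ± 1.80 CPM in NT. For Tfe3 the interval was −0.15 to 0.09, among the narrowest of the family. Tfeb, the best known regulator of lysosomes, was at 14.1 ± 0.596 CPM in siID4 and 15.9 ± 1.02 CPM in NT, with arms that did not overlap (−0.18, adjusted p = 0.235, or 0.0587 with the block). Mitf, known from melanocytes, was at 6.63 ± 0.738 CPM in siID4 and 6.27 ± 0.807 CPM in NT.

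Of 16 genes of the lysosomal network that TFEB controls, 2 rose and 14 did not pass, with a median log2 fold change of 0.09. The hexosaminidase gene Hexa had 71.5, 77.4 and 74.8 CPM in siID4, against 59.5, 57.9 and 58.3 CPM in NT (0.35, SE 0.05, adjusted p = 0.00474). Rragd, a GTPase gene of nutrient signalling, averaged 2.63 CPM in siID4 and 1.53 CPM in NT (0.77 on the log2 scale, SE 0.18, adjusted p = 0.0298) but passed in 0 of the 6 fits without a library and not with DESeq2. With the block 9 were called upward and 1 downward, where 17.9% of all genes were called upward and 18.3% downward. Without it 4.62% of all genes were called upward and 4.93% downward.

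Of the 32 members tested, 13 were higher in siID4 in all 3 numbers and 7 were lower in all 3, where 59.6% of all genes had 1 sign in all 3 (30% higher and 29.6% lower). Arms that did not overlap were found for 8 members upward and 5 downward, against 30.9% of all genes (15.5% upward and 15.4% downward). The coefficient of variation within an arm was 23.8% in siID4 and 27.0% in NT for Ahr, and 15.5% in siID4 and 22.3% in NT for Arntl. For Mga it was 1.40% in siID4 and 3.87% in NT.

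**Figure D5:**
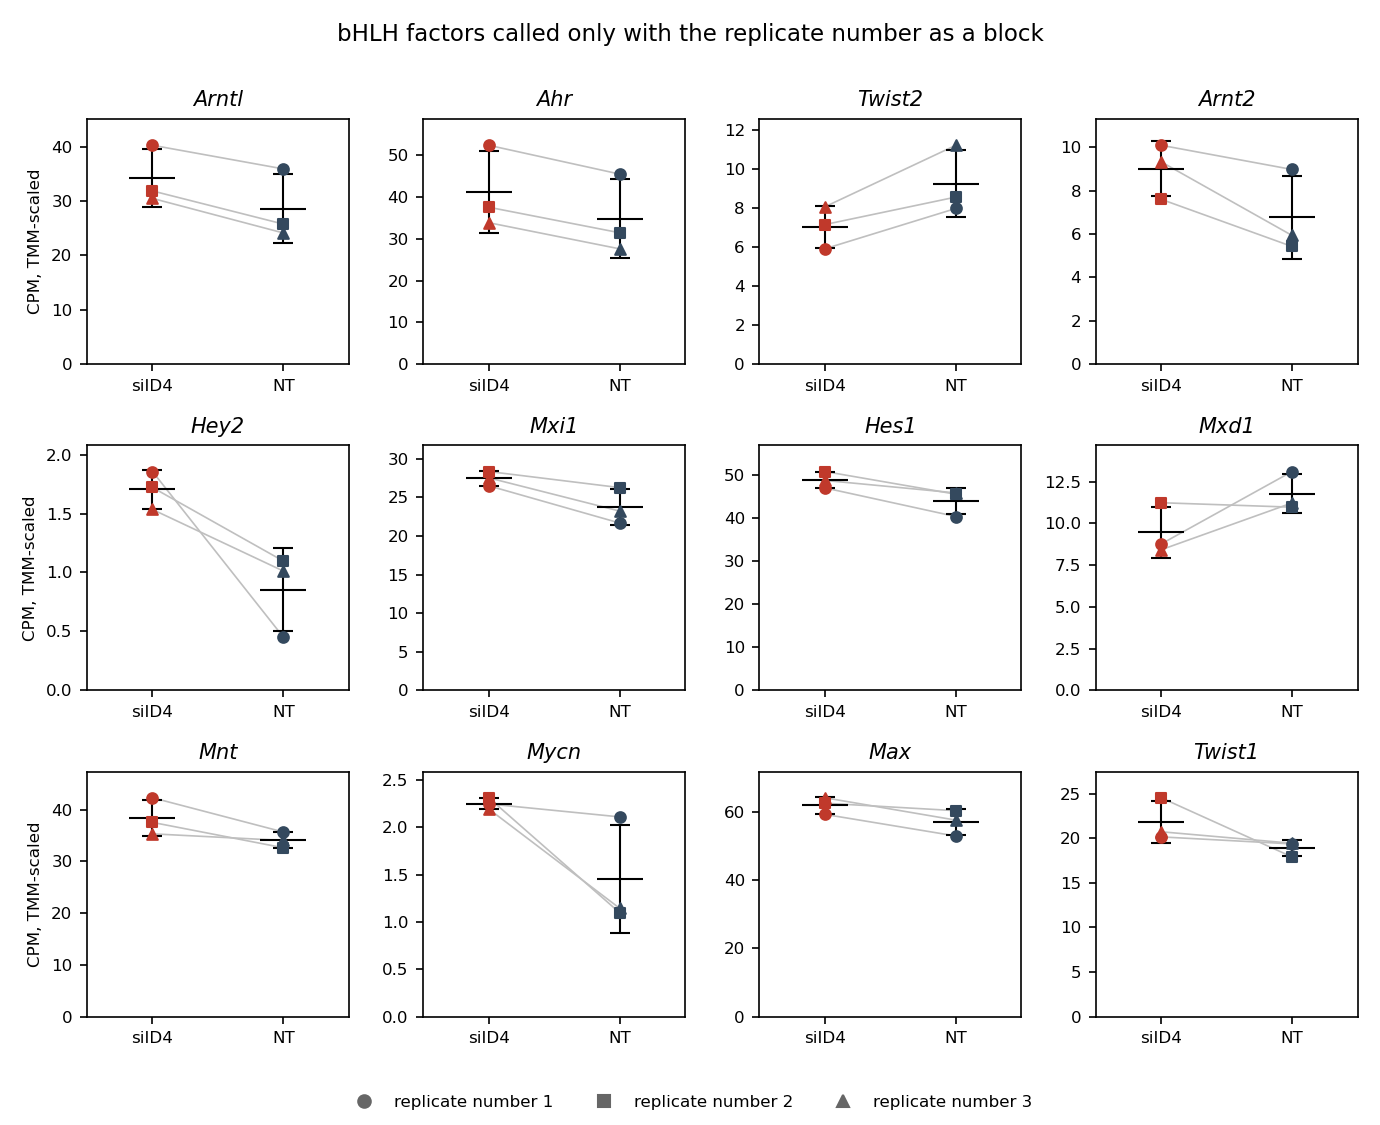
CPM (TMM-scaled, axis from 0) of the 12 bHLH factors called only with the replicate number as a block, siID4 in red and NT in dark blue, with lines joining libraries of the same number and black bars for mean and SD (n = 3 per arm). In Arntl, Ahr, Twist2, Arnt2, Max and Mnt the 3 lines run in the same direction while the arms overlap, and in Ahr they are nearly parallel. In Mxd1 the line of replicate number 2 is nearly flat.

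Of 13 other bHLH factors tested, among them Hif1a, Epas1, Srebf1 and Srebf2, 0 were called by edgeR's quasi-likelihood test, DESeq2 or limma-voom, 3 had an unadjusted p under 0.05, and 2 were called downward with the block, Srebf2 (−0.21, adjusted p = 2.14e-07) and Arntl2. The shares of all genes called were 9.55% without the block and 36.1% with it. Whether the call counts of the members and of these 13 differ was not tested. Of the 7 ID and E protein genes, Id3 rose and Id4 fell, and with the block 4 were called upward and 1 downward.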

How the data were processed

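Libraries of 6 samples were made with the TruSeq Stranded mRNA kit from 1 µg of RNA, per the labels' protocols. The authors deposited expected counts per gene, with a gene length in bases. The tools cutadapt, STAR, RSEM and mm10 are named in the submitters' processing notes, while the sources used here give no version, annotation, strand setting or filter rule. Without the strand setting, overlapping antisense genes may not be told apart. Between 10.0% and 10.6% of values per library were not whole (tolerance 0), and all were rounded for testing.

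Calls rest on the quasi-likelihood test of edgeR 4.0.16 (R 4.3.3) with robust dispersion, TMM scaling, filterByExpr and group as the only term, fitted to all genes, with Benjamini-Hochberg adjustment over 13941 genes. Adjusted p-values in the text are from it unless another is named. CPM are TMM-scaled, while TPM use the deposited length and no TMM factor. SE was derived from the F statistic. An exact permutation test of 3 against 3 cannot give a p under 0.1. The fit was tested on simulated counts drawn independently for each library. They held no effect shared by a replicate number, so the simulation does not bear on such effects. Library pairs of an arm differed by more than counting error (a chi-square of 5.09 to 13.6 per gene), so n = 3 per arm. Where the replicates share a culture, p-values measure only the spread between these samples. The common biological coefficient of variation was 7.83%.

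Replicate numbers were checked as pairs: deviations from the arm means correlated across genes at 0.42, 0.14 and 0.38 for equal numbers and at most −0.02 otherwise. Because each arm was centred on its own mean, positive values for equal numbers push those for unequal numbers below 0. The latter are therefore not separate evidence of pairing. Equal numbers were taken as pairs in the blocked fit only. The main fit and the fits that left out a library had group as their only term. A blocked value or call stands beside results whose call it changes. All 6 called members also passed with the block, at adjusted p from 7.27e-13 (Clock) to 1.44e-04 (Mxd4). Id4 passed too (0.0113 with the block, 8.65e-04 without it). What the pairs share is not stated in the labels.

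The members, the lists and the tests were chosen with earlier results of these data known. From the clock list 1 gene is not reported here. Every member is named by rule, with full values for those called, and from each list up to 4 called genes. A few genes called only with the block, or in neither fit, were named after their values were seen. Positions are from GENCODE M21 (GRCm38), in which all 43 members matched by identifier. Alternatives were DESeq2 size factors, upper quartile scaling, library totals, no filter, a mean of at least 5 CPM, DESeq2 1.42.0, limma-voom (limma 3.58.1), the block, and each library left out. For the lists these, other than the block, were chosen after seeing the data.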

Additional observations from a re-analysis of the deposited data

How the results depend on the processing

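Over all genes 1331 were called, and 5038 with the replicate block. Of the members 6 were called, and 18 with the block. Leaving out 1 library gave 445 to 1351 genes and 1 to 7 members. The block moved the list counts to 7 for the Notch pathway, 7 for clock genes, 9 for MYC targets, 10 for lysosome genes, 1 for MLX targets, 6 for BMP genes, 5 for transition factors, 5 for ID and E proteins and 2 for other bHLH factors. In the AHR list it added Tiparp alone (−0.19, adjusted p = 0.00541). Chosen after seeing the data, leaving out 1 library gave list counts of 1 to 3 for Notch, 0 to 2 for clock genes, 0 to 1 for MYC targets, 1 to 1 for lysosome genes, 0 to 0 for MLX targets, 1 to 4 for BMP genes, 0 to 2 for transition factors, 2 to 3 for ID and E proteins, 0 to 0 for other bHLH factors and 2 to 3 for AHR genes. At a mean of at least 5 CPM, 1 lysosome gene and 1 BMP gene were called, and DESeq2 called 1 lysosome gene. With no filter on low counts 2 other bHLH factors were called. With library totals in place of TMM, 829 genes rose and 564 fell, against 644 and 687, and the members stayed at 3 and 3. At a mean of at least 5 CPM Atoh8 was not tested and 5 members were called. DESeq2 and limma-voom called 6 members each. Mxd4 lost its call with no filter, and the other 5 called members kept theirs in each setting with all 6 libraries where they were tested. The cause of these differences was not tested. Atoh8, Mycn and Hey2 rest on 9 to 99 counts per library.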
